A study of Mus musculus with 12 samples.

Results

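Respiratory chain genes were followed in whole brains of mouse embryos whose dams drank ethanol or saccharin. Genes were taken by name from the deposited gene table: all genes of mitochondrial DNA (mt-), and the nuclear genes whose symbols begin with Nduf, Uqcr, Cox4 to Cox8 or Atp5, with Sdha, Sdhb, Sdhc and Sdhd. The rule used no measured value. It gave 102 of the 13770 genes in the table, 13 from mitochondrial DNA and 89 from the nucleus. Of these, 100 had a mean of at least 1 FPKM and were tested, and the muscle isoforms Cox6a2 and Cox7a1 were not. The rule also takes in assembly factors (Ndufaf genes) and Atp5s, which are not subunits.

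RNA was sequenced after poly-A selection from 12 whole brains of wild-type C57BL/6J mice (C57BL/6 in the labels) at embryonic day 18 (E18). The 6 brains of the PAE group (prenatal alcohol exposure) came from dams that drank ethanol sweetened with saccharin during mating and pregnancy, and the 6 of the SAC group from dams that drank saccharin alone, with 3 males and 3 females in each group. Names of PAE brains begin with ES19, ES23 or ES27 and those of SAC brains with SAC12 or SAC26. No source says if pups with the same prefix were littermates. Each brain was counted as a replicate, and the p-values therefore reflect no more than the scatter among these brains. Drinking was voluntary, so the dose of each dam was its own choice.

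The respiratory chain sits in the inner mitochondrial membrane. Complex I takes electrons from NADH and complex II from succinate, complex III passes them from ubiquinol to cytochrome c, and complex IV passes them to oxygen. Complexes I, III and IV pump protons, and the ATP synthase, counted as complex V, uses the gradient to make ATP. Mitochondrial DNA encodes subunits of every complex except complex II, and the nucleus encodes the rest, so each of the other complexes is built from both genomes. Neurons depend heavily on this chain, and its use rises as the brain matures.

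Mitochondrial genes are copied as long RNAs that are cut at the tRNAs between genes. Some neighbours, such as mt-Atp6 and mt-Co3, which overlap by 1 base, have no tRNA between them. In each of the pairs mt-Atp8 with mt-Atp6 and mt-Nd4l with mt-Nd4, both genes stay on 1 messenger RNA, which is why sequences are shown. The first pair overlaps by 43 bases and the second by 7 bases. A fragment from such an RNA can be counted for either gene. The sequences are the whole of mt-Atp8 (204 bases, chrM:7766-7969) and the last 60 bases of mt-Nd4l (chrM:10114-10173), on the plus strand of GRCm38 from GENCODE M21, with the bases shared with the next gene in capitals.
mt-Atp8: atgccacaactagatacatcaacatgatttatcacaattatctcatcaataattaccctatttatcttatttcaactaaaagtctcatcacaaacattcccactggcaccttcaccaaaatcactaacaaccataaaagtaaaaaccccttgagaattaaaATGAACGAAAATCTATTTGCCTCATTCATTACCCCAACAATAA
mt-Nd4l: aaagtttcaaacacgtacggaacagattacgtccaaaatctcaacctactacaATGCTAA

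Nuclear members have no shared RNA, and their promoters were searched for letters bound by known factors. NRF1, a transcription factor known for activating respiratory chain genes, binds a stretch made of GCGCA, any base and GCGC. The GA-binding protein, of the ETS family, binds CCGGAAG. A RefSeq promoter (GRCm38.p6, from 250 bases before to 50 bases after the start) was matched for 71 nuclear members. Searched on both strands, the NRF1 letters stood in 19 of these 71 promoters (26.8%), against 11.8% of 9508 other genes tested here and 5.19% of 27025 genes with a promoter in the table. The ETS letters stood in 18 of 71 (25.4%), against 19.9% of the other genes tested, and AAGATGGC, the letters of YY1, in 10 of 71 (14.1%), against 5.26%. The letters TATAAA were in 5 of 71 (7.04%), against 8.24%. A match of letters is a description and not a site. One member of each complex, picked because it carries NRF1 or ETS letters, is shown over the 200 bases before its start. The strand is that of the gene, 5′ to 3′, with NRF1 and ETS letters on either strand in capitals. In Ndufs6 (chr13:73328483-73328682, minus strand) the NRF1 letters begin 16 bases before the start, and in Atp5k (chr5:108434400-108434599, minus strand) 50 bases before it. In Sdhd (chr9:50603850-50604049, minus strand) NRF1 letters begin at 79 bases and ETS letters at 46 bases, in Uqcrh (chr4:116075071-116075270, minus strand) ETS letters at 10 bases, and in Cox6a1 (chr5:115348959-115349158, minus strand) NRF1 letters at 162 and 117 bases and ETS letters at 16 bases before the start.
Ndufs6: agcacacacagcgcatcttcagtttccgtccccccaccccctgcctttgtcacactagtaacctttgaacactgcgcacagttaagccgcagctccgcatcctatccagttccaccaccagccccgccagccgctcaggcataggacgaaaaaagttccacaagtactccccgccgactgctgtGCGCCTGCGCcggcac
Sdhd: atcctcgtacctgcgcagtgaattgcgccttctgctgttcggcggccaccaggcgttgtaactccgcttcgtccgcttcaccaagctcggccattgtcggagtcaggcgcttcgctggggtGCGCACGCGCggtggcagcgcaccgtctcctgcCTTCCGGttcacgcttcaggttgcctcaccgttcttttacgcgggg
Uqcrh: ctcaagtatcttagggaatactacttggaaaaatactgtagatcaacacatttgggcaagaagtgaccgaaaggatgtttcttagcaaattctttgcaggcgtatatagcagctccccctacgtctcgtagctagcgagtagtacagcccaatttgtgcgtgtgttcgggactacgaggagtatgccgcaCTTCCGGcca
Cox6a1: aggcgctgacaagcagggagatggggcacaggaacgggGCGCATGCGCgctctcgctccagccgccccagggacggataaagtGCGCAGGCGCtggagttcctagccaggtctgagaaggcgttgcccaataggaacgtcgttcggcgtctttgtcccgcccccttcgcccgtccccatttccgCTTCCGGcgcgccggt
Atp5k: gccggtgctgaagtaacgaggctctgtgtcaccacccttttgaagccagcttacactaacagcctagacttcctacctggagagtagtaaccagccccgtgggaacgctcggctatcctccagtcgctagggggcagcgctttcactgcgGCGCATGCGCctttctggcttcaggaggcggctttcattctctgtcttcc

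Levels are FPKM, the authors' fragment counts scaled for transcript length and library size. Read numbers were not recoverable from them, which leaves depth and counting error unknown. Summed over all genes, FPKM were between 218026 and 232863 in PAE brains and between 221804 and 228633 in SAC brains. Hox genes, which mark hindbrain and spinal cord, averaged 4.32 FPKM in the PAE brain ES19-4 and at most 0.012 FPKM in the other 5 PAE brains, against 1.72 to 4.82 FPKM in 5 of the SAC brains, with SAC12-6 at 0.031 (mean of 15 genes). The Hox level thus differed between brains and, in part, with treatment, and its part in the results was not tested beyond leaving out brains and a fit with it as a covariate. In the gene table a gene's value is not the sum of its transcripts. The sum of the deposited transcripts was over 1.5 times the gene value for 43 of 102 members and within 5% of it for 31. For Atp5l, which encodes a membrane subunit of complex V, it was 11.1 times the gene value. Comparisons of 1 gene between brains rest on the gene value, and a member called the highest of its class is so by gene values unless sums are named.

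By gene values, respiratory chain genes took a large share of summed FPKM. The percentages that follow depend on those values, and shares of the total by sums of transcripts were not computed. The 13 mitochondrial genes made up between 6.42% and 8.10% of summed FPKM in PAE brains (median 7.68%), against 7.51% to 8.40% in SAC brains (median 7.83%). Nuclear members made up 1.81% to 2.10% in PAE brains (median 2.02%), against 1.98% to 2.05% in SAC brains (median 1.99%). The ratio of mitochondrial to nuclear FPKM was 3.54 to 3.90 in PAE brains (median 3.74) and 3.76 to 4.09 in SAC brains (median 3.94). With sums of transcripts the same ratio was 2.15 to 2.38 in PAE brains and 2.27 to 2.47 in SAC brains. All of these ranges overlapped between the groups. In bulk RNA, fewer cells of a type and less RNA per cell cannot be told apart.

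The first question was whether the chain differed between PAE and SAC brains regardless of sex. A single member passed the test: Ndufa2, an accessory subunit in the matrix arm of complex I, was higher in PAE brains. No member was lower, and 99 of the 100 tested did not pass. Among all 12346 genes tested, 9.56% passed (4.34% higher and 5.22% lower), so the share of members that passed was below that of the table. Without ES19-4, 2 members were higher and 6 lower, when 19.3% of all genes passed. Log2 fold changes on the scale log2(FPKM + 1) ran from -0.26 for mt-Nd4l to 0.27 for Ndufa2. Their median was 0.002 over the 100 members and 0.005 over all genes tested, and 52 of the 100 were positive, against 51.7% of all genes tested. At an unadjusted p under 0.05, 7 members were higher and 5 lower, against 13.7% and 14.8% of all genes tested. The test was limma's moderated test with Benjamini-Hochberg adjustment over all 12346 genes, and every adjusted p below comes from it.

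**Figure D1:**
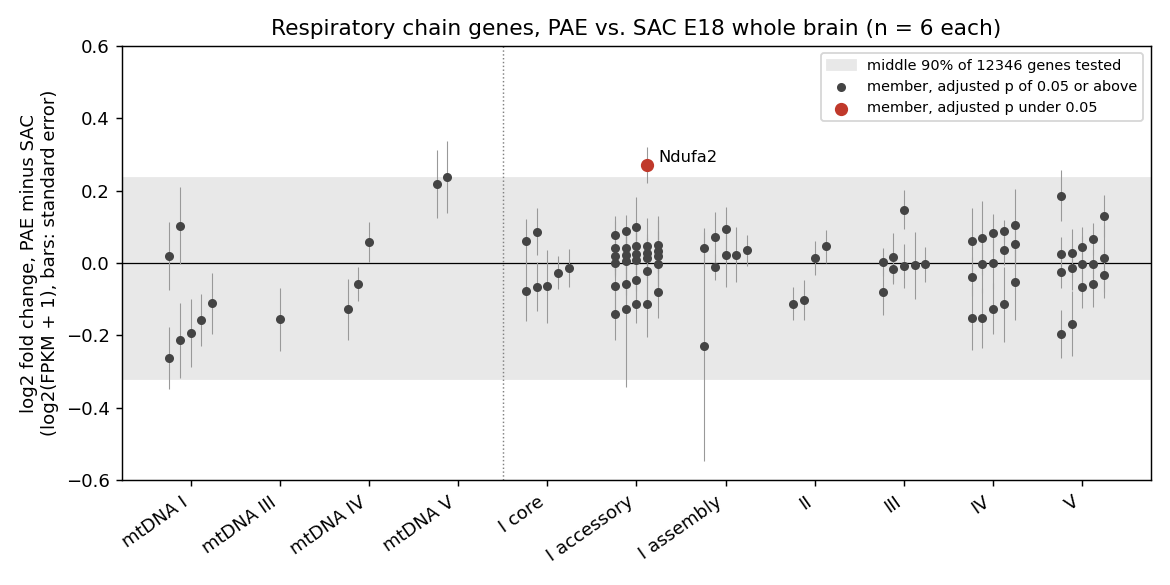
Log2 fold change of PAE minus SAC, on the log2(FPKM + 1) scale, for the 100 members tested, grouped by genome (mitochondrial DNA left of the dotted line) and complex, with standard errors as bars and the middle 90% of all 12346 genes tested in grey. Ndufa2, at 0.27, is the single member past an adjusted p of 0.05, and most members lie close to 0.

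The intervals of these differences were narrow for most nuclear members. The 95% interval of the fold change lay within 1.5-fold in either direction for 98 of 100 members and within 0.32 on the log2 scale for 84, and no estimate was past 0.32. The exceptions at 1.5-fold were Ndufa12, an accessory subunit with an interval of -0.60 to 0.34 on the log2 scale, and Ndufaf4, an assembly factor with an interval of -0.91 to 0.45. Among mitochondrial genes 6 of 13 intervals lay within 0.32. A miss of the threshold therefore leaves room for differences of this size and does not show that the groups were alike.

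Ndufa2 (chr18:36742332-36744557, minus strand) had 53.3, 51.4, 58.3, 52.6, 57.4 and 51.4 FPKM in PAE brains ES19-4, ES19-8, ES23-4, ES23-7, ES27-1 and ES27-4. In SAC brains SAC12-5, SAC12-6, SAC12-7, SAC26-5, SAC26-7 and SAC26-8 it had 48.5, 43.1, 41.2, 45.6, 47.7 and 42.2 FPKM. Every PAE brain was above every SAC brain, which was so for 2.11% of all genes tested. The log2 fold change was 0.27 (SE 0.050, adjusted p = 0.019, n = 6 each). The gene overlaps Tmco6, on the other strand, by 66 bases, and it is unknown if the counting separated the strands. The call was lost when each name prefix was reduced to its mean (adjusted p = 0.212) and when the Hox level entered the fit (adjusted p = 0.257), with log2 fold changes of 0.27 in both.

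**Figure D2:**
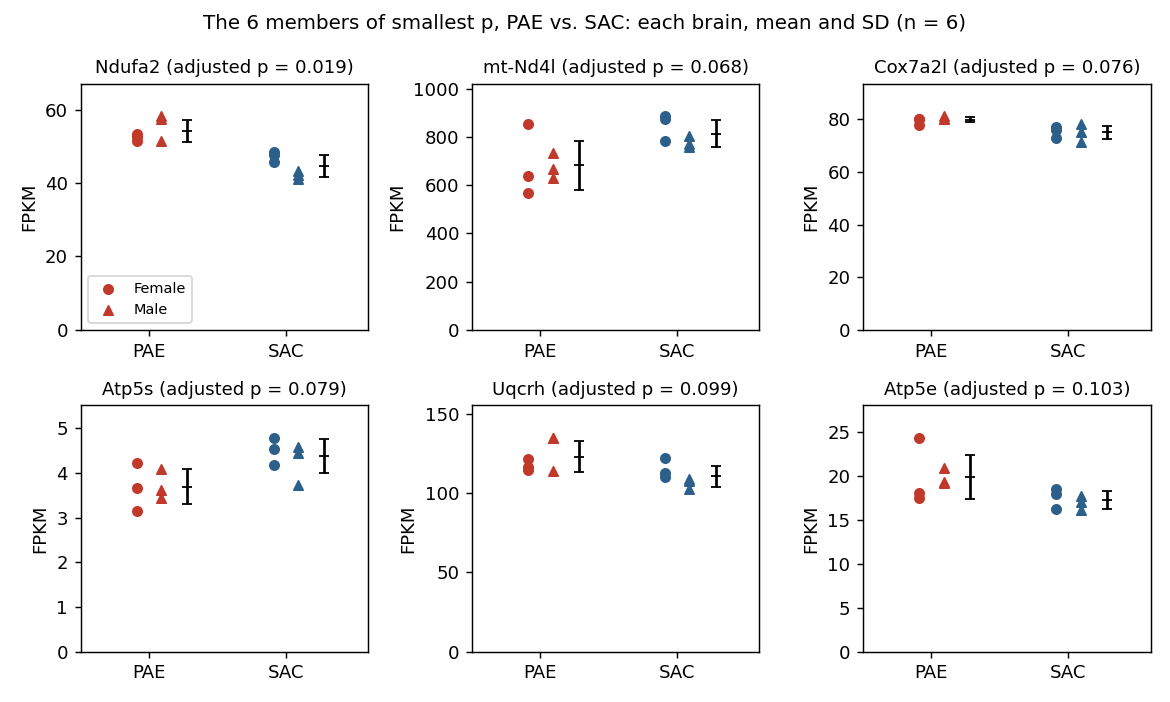
FPKM in each brain (circles female, triangles male) with the mean and SD of each group (n = 6) for the 6 members of smallest p, on axes that start at 0. For Ndufa2 the PAE brains, from 51.4 to 58.3 FPKM, all lie above the SAC brains, from 41.2 to 48.5 FPKM, and for the other 5 members the groups overlap.

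Complex I has the most members, 51, of which 7 are mitochondrial and 44 nuclear. Apart from Ndufa2, none of its 28 other accessory subunits passed, and 19 of all 29 had positive log2 fold changes (median 0.02). Ndufa6, a member of the LYR protein family and the accessory subunit of highest mean gene value (by sums of transcripts Ndufb9 was higher), had 158 to 207 FPKM in PAE brains (median 187) and 171 to 188 FPKM in SAC brains (median 181). Its log2 fold change was 0.03 (SE 0.055, adjusted p = 0.736), with overlapping groups. Ndufa10, a subunit of the membrane arm, had 28.7 to 41.3 FPKM in PAE brains (median 37.5) and 38.3 to 44.2 FPKM in SAC brains (median 39.3). At -0.14 (SE 0.072, adjusted p = 0.219) it had the most negative log2 fold change of the accessory subunits, and its groups overlapped.

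The 7 nuclear core subunits of complex I carry the flavin, iron-sulphur clusters and quinone site, and none passed. Ndufv2, an iron-sulphur subunit and the highest of them, had 69.3 to 95.6 FPKM in PAE brains (median 90.3) and 87.2 to 92.8 FPKM in SAC brains (median 91.4), with a log2 fold change of -0.06 (adjusted p = 0.552). The PAE range was the wider and held the whole SAC range. Ndufv1, which binds NADH and the flavin, had 18.3 to 24.2 FPKM in PAE brains (median 20.4) and 17.3 to 20.9 FPKM in SAC brains (median 19.7), with a log2 fold change of 0.09 (adjusted p = 0.411). Ndufs8, another iron-sulphur subunit, had 23.0 to 32.7 FPKM in PAE brains (median 30.1) and 27.4 to 34.6 FPKM in SAC brains (median 30.5), with a log2 fold change of -0.08 (adjusted p = 0.584).

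Assembly factors of complex I are needed to build it and are not part of it. None of the 8 passed. Ndufaf5, which hydroxylates a core subunit during assembly, was the highest by gene values, with 22.4 to 26.2 FPKM in PAE brains (median 24.3) and 22.7 to 24.6 FPKM in SAC brains (median 23.3). By sums of transcripts Ndufaf2 was the highest, with a mean of 94.7 FPKM against 36.3 FPKM for Ndufaf5. Ndufaf6 had the largest positive log2 fold change, 0.09 (adjusted p = 0.334), with 6.01 to 7.30 FPKM in PAE brains (median 6.96) and 5.47 to 7.04 FPKM in SAC brains (median 6.28). With transcripts summed, its log2 fold change was -0.02 (adjusted p = 0.946). Ndufaf4 had the most negative, -0.23 (SE 0.315, adjusted p = 0.667), and its levels fell on separate steps: PAE brains had 4.01, 6.49, 3.98, 6.70, 12.04 and 12.08 FPKM and SAC brains 6.98, 11.9, 12.6, 6.71, 12.1 and 3.53 FPKM. Both groups held brains near 4, near 7 and near 12 FPKM, so the spread within each group was far larger than the difference between them.

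Complex II, succinate dehydrogenase, is encoded by the nucleus alone and also serves the tricarboxylic acid cycle. Sdha, the flavoprotein that oxidises succinate, had 33.1 to 40.2 FPKM in PAE brains (median 37.5) and 38.7 to 42.7 FPKM in SAC brains (median 39.98). Its log2 fold change was -0.11 (SE 0.045, adjusted p = 0.1199). Of the 6 PAE brains 4 lay below the SAC range, and the groups overlapped.
Sdhd, a membrane anchor whose promoter is shown above, had 29.4 to 37.1 FPKM in PAE brains (median 32.1) and 32.4 to 37.7 FPKM in SAC brains (median 35.4), with a log2 fold change of -0.10 (adjusted p = 0.243). Sdhb, the iron-sulphur subunit, had 29.9 to 32.1 FPKM in PAE brains (median 30.2) and 26.3 to 31.9 FPKM in SAC brains (median 30.04), with a log2 fold change of 0.05 (adjusted p = 0.527). Sdhc, the other anchor, had 15.9 to 18.6 FPKM in PAE brains (median 17.4) and 15.8 to 18.3 FPKM in SAC brains (median 17.2), with a log2 fold change of 0.01 (adjusted p = 0.874). None of the 4 subunits passed.

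None of the 8 nuclear members of complex III passed. Uqcrh, the hinge protein that helps cytochrome c1 meet cytochrome c, was the highest of them and had the largest positive log2 fold change. It had 114 to 135 FPKM in PAE brains (median 119) and 103 to 122 FPKM in SAC brains (median 109), with a log2 fold change of 0.15 (SE 0.055, adjusted p = 0.099). The groups overlapped through SAC12-5 alone. Uqcrc1, a core protein that faces the matrix, had 28.6 to 39.8 FPKM in PAE brains (median 35.1) and 34.3 to 38.6 FPKM in SAC brains (median 37.0), with a log2 fold change of -0.08 (adjusted p = 0.434).

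Of the 17 nuclear members placed with complex IV, 15 were tested and none passed. Cox8a, a small membrane subunit and the highest of them in the gene table (by sums of transcripts Cox6c was), had 126 to 181 FPKM in PAE brains (median 156) and 158 to 185 FPKM in SAC brains (median 167), with a log2 fold change of -0.13 (adjusted p = 0.258). Cox5b, a zinc-binding subunit, had the largest positive value among the subunits, 0.10 (adjusted p = 0.520), with 79.4 to 122 FPKM in PAE brains (median 102) and 84.0 to 108 FPKM in SAC brains (median 91.0). The groups overlapped for both genes. Cox7a2l, which joins complexes III and IV into supercomplexes and of which C57BL/6 mice carry a shortened form, had 77.9 to 81.4 FPKM in PAE brains (median 80.1) and 71.6 to 78.3 FPKM in SAC brains (median 75.6). The log2 fold change was 0.09 (SE 0.030, adjusted p = 0.076), with an overlap of less than 1 FPKM. A test per gene without moderation called it (adjusted p = 0.045).

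Several subunits of complex IV exist in forms that are used in different tissues. Cox4i1, the general form, had 83.7 to 98.5 FPKM in PAE brains (median 85.5) and 81.3 to 89.5 FPKM in SAC brains (median 85.9), with a log2 fold change of 0.04 (adjusted p = 0.612). Cox4i2, the form known from lung and from low oxygen, had 2.61 to 4.29 FPKM in PAE brains (median 3.76) and 3.58 to 4.37 FPKM in SAC brains (median 4.17), with a log2 fold change of -0.15 (adjusted p = 0.287). Cox4i2 made up 2.96% to 4.62% of the pair in PAE brains and 4.22% to 4.96% in SAC brains, or 1.53% to 2.32% and 2.07% to 2.61% by sums of transcripts.
Cox6a1, the general form of its subunit, had 130 to 155 FPKM in PAE brains (median 139) and 124 to 143 FPKM in SAC brains (median 130), with a log2 fold change of 0.08 (adjusted p = 0.326). Its heart and skeletal muscle form Cox6a2 had 0.15 to 0.82 FPKM in PAE brains (median 0.60) and 0.37 to 0.93 FPKM in SAC brains (median 0.58). The muscle form Cox7a1 was listed at 0 in PAE brains ES23-4 and ES27-4, reached 0.96 FPKM in the other PAE brains, and had 0.20 to 2.08 FPKM in SAC brains. Both muscle forms were thus near the floor in these brains and were not tested.
Cox7a2, the general partner of Cox7a1, had 47.8 to 63.7 FPKM in PAE brains (median 59.6) and 51.5 to 60.8 FPKM in SAC brains (median 55.4), with a log2 fold change of 0.05 (adjusted p = 0.626). Cox6b1 had 71.7 to 124 FPKM in PAE brains (median 110) and 103 to 120 FPKM in SAC brains (median 106), with a log2 fold change of -0.05 (adjusted p = 0.775). Cox6b2, known as the testis form, had 4.60 to 8.03 FPKM in PAE brains (median 5.10) and 5.78 to 6.53 FPKM in SAC brains (median 6.17), with a log2 fold change of -0.11 (adjusted p = 0.498). All of these ranges overlapped, and the PAE range was the wider in each.
Ndufa4, named for complex I but a subunit of complex IV, had 46.8 to 59.7 FPKM in PAE brains (median 54.5) and 52.1 to 59.5 FPKM in SAC brains (median 54.7), with a log2 fold change of -0.04 (adjusted p = 0.690). Its paralog Ndufa4l2, known as a target of the hypoxia factor HIF-1, had 3.19 to 4.15 FPKM in PAE brains (median 3.84) and 3.16 to 4.96 FPKM in SAC brains (median 4.35), with a log2 fold change of -0.15 (adjusted p = 0.248). Neither passed.

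**Figure D3:**
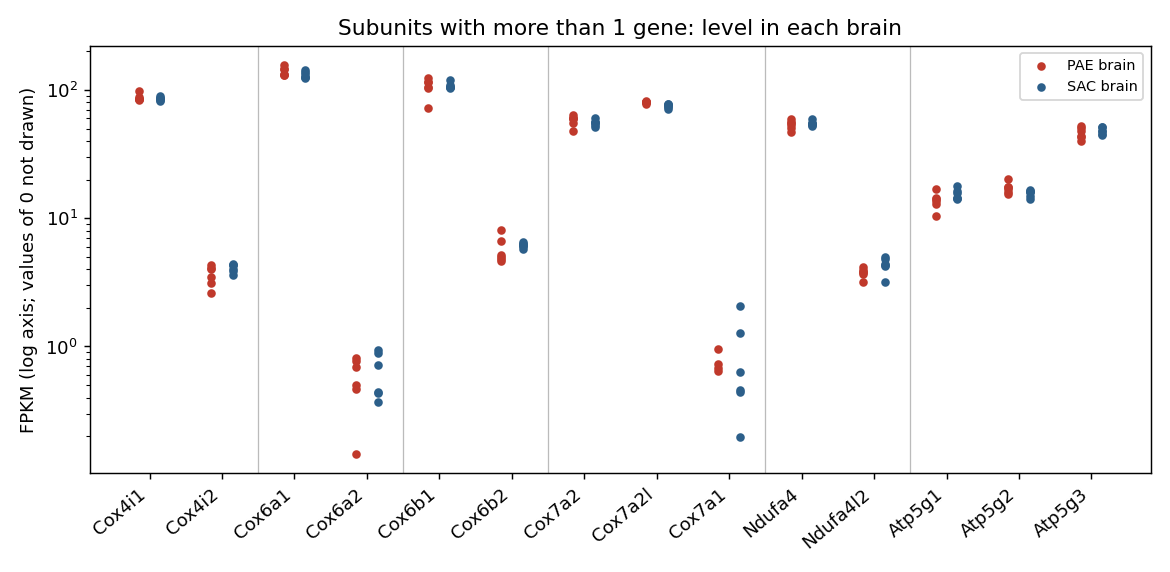
Gene-table FPKM in each brain, on a log axis, for subunits encoded by more than 1 gene, with PAE brains left of SAC brains in each column and values of 0 not drawn. The general forms Cox4i1, Cox6a1, Cox6b1 and Cox7a2 lie far above Cox4i2, Cox6a2, Cox6b2 and Cox7a1 in both groups.

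None of the 16 nuclear members of complex V passed. Of the catalytic F1 part, Atp5b, the beta subunit that makes ATP, was the highest and had the most negative log2 fold change, -0.07 (adjusted p = 0.477), with 148 to 196 FPKM in PAE brains (median 180) and 182 to 190 FPKM in SAC brains (median 185). Atp5e, the epsilon subunit of the rotor stalk, had 17.4 to 24.4 FPKM in PAE brains (median 19.2) and 16.1 to 18.5 FPKM in SAC brains (median 17.3). Its log2 fold change was 0.19 (SE 0.070, adjusted p = 0.103), and the groups overlapped. Atp5s, a coupling factor outside the core enzyme, had 3.14 to 4.21 FPKM in PAE brains (median 3.65) and 3.72 to 4.79 FPKM in SAC brains (median 4.49). Its log2 fold change was -0.20 (SE 0.067, adjusted p = 0.079), with overlapping groups.
In the membrane and stalk part, Atp5h, the d subunit of the stalk, was the highest, with 110 to 131 FPKM in PAE brains (median 122) and 106 to 122 FPKM in SAC brains (median 117). The ring of c subunits that turns in the membrane is encoded by Atp5g1, Atp5g2 and Atp5g3, whose mature proteins are identical. Atp5g3 had 39.8 to 52.2 FPKM in PAE brains (median 45.6) and 44.2 to 51.2 FPKM in SAC brains (median 47.9), with a log2 fold change of -0.06 (adjusted p = 0.590). Atp5g2 had 15.6 to 20.03 FPKM in PAE brains (median 17.2) and 14.2 to 16.5 FPKM in SAC brains (median 15.99), with a log2 fold change of 0.13 (adjusted p = 0.162). Atp5g1 had 10.4 to 16.8 FPKM in PAE brains (median 13.9) and 14.2 to 17.7 FPKM in SAC brains (median 15.1), with a log2 fold change of -0.17 (adjusted p = 0.238).
The share of Atp5g2 among the 3 genes was 19.8% to 24.9% in PAE brains (median 23.2%) and 18.6% to 21.3% in SAC brains (median 19.5%), and by sums of transcripts 15.1% to 20.7% (median 19.0%) and 14.6% to 16.9% (median 15.5%). Atp5g3 was the most abundant by either measure, while Atp5g1 and Atp5g2 changed places: by sums of transcripts Atp5g1 made up 23.5% to 33.3% in PAE brains and 28.7% to 33.8% in SAC brains.

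Mitochondrial genes did not move as a block. None of the 13 passed, 8 had negative and 5 positive log2 fold changes, and the median was -0.11, against 0.005 over all genes tested. The positive ones were 4 neighbours on the genome, mt-Atp8, mt-Atp6, mt-Co3 and mt-Nd3, together with mt-Nd6, the single protein gene of the opposite strand. This pattern was noticed in these values and is given as a description.
The subunits of complex I come first. mt-Nd1 had 1324 to 2354 FPKM in PAE brains (median 1833) and 1948 to 2211 FPKM in SAC brains (median 2111), with a log2 fold change of -0.21 (SE 0.103, adjusted p = 0.194). mt-Nd2 had 1060 to 1590 FPKM in PAE brains (median 1420) and 1379 to 1649 FPKM in SAC brains (median 1479), with a log2 fold change of -0.11 (SE 0.085, adjusted p = 0.414). For mt-Nd1, 5 PAE brains lay below all SAC brains and ES19-4 above them all, while for mt-Nd2 the ranges overlapped.
mt-Nd4l had 568 to 856 FPKM in PAE brains (median 653) and 757 to 888 FPKM in SAC brains (median 794), with the most negative log2 fold change of all members, -0.26 (SE 0.086, adjusted p = 0.068). Of the PAE brains only ES19-4, at 856 FPKM, stood inside the SAC range, and mt-Nd4l passed when that brain was left out. mt-Nd4, on the same RNA, had 1038 to 1684 FPKM in PAE brains (median 1341) and 1423 to 1710 FPKM in SAC brains (median 1536), with a log2 fold change of -0.19 (SE 0.093, adjusted p = 0.190). mt-Nd5 had 856 to 1205 FPKM in PAE brains (median 1032) and 1040 to 1243 FPKM in SAC brains (median 1140), with a log2 fold change of -0.16 (SE 0.072, adjusted p = 0.173).
The remaining subunits of complex I differed in sign. mt-Nd3 had 361 to 555 FPKM in PAE brains (median 484) and 437 to 531 FPKM in SAC brains (median 469), with a log2 fold change of 0.02 (SE 0.093, adjusted p = 0.914). mt-Nd6 was the lowest mitochondrial gene, with 64.3 to 105 FPKM in PAE brains (median 80.0) and 63.5 to 81.3 FPKM in SAC brains (median 77.6), and a log2 fold change of 0.10 (SE 0.107, adjusted p = 0.554). Its levels above the SAC range came from ES19-4 and from both ES23 brains.
mt-Cytb, the cytochrome b of complex III, had 1780 to 2710 FPKM in PAE brains (median 2305) and 2319 to 2815 FPKM in SAC brains (median 2562), with a log2 fold change of -0.16 (SE 0.087, adjusted p = 0.260). The 3 mitochondrial subunits of complex IV form its catalytic core. mt-Co1, the highest of all members, had 2121 to 3263 FPKM in PAE brains (median 2702) and 2712 to 3128 FPKM in SAC brains (median 2936), with a log2 fold change of -0.13 (SE 0.083, adjusted p = 0.335). mt-Co2 had 771 to 922 FPKM in PAE brains (median 840) and 830 to 925 FPKM in SAC brains (median 866), with a log2 fold change of -0.06 (SE 0.047, adjusted p = 0.449). mt-Co3 had 706 to 871 FPKM in PAE brains (median 806) and 713 to 829 FPKM in SAC brains (median 775), with a log2 fold change of 0.06 (SE 0.056, adjusted p = 0.525).
The 2 mitochondrial subunits of complex V lie on 1 RNA and had the largest positive values of the mitochondrial genes. mt-Atp8 had 1625, 1682, 2462, 1872, 2202 and 2025 FPKM in PAE brains ES19-4, ES19-8, ES23-4, ES23-7, ES27-1 and ES27-4, against 1486 to 1834 FPKM in SAC brains (median 1705). mt-Atp6 had 1354, 1346, 1839, 1439, 1808 and 1835 FPKM in the same PAE brains, against 1252 to 1527 FPKM in SAC brains (median 1350). The log2 fold changes were 0.24 (SE 0.099, adjusted p = 0.136) for mt-Atp8 and 0.22 (SE 0.093, adjusted p = 0.145) for mt-Atp6.

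Ratios between mitochondrial genes of the same brain do not depend on its total. For mt-Atp8 and mt-Atp6 the PAE brains split by name prefix. The 4 neighbours mt-Atp8, mt-Atp6, mt-Co3 and mt-Nd3 made up 32.2%, 31.3%, 30.4% and 29.9% of mitochondrial FPKM in PAE brains ES23-4, ES23-7, ES27-1 and ES27-4. In PAE brains ES19-4 and ES19-8 they made up 22.3% and 25.8%, against 23.3% to 24.7% in the 6 SAC brains. Taken singly, mt-Co3 and mt-Nd3 did not split by prefix. The mt-Co3 share was 4.71% in ES19-8 and 4.65% in ES27-1, against 4.26% to 4.42% in SAC brains. The mt-Nd3 share was 2.94% in ES19-8 and 2.58% in ES23-7, against 2.50% to 2.87% in SAC brains. The log2 ratio of mt-Atp8 to mt-Nd4l was 1.97, 1.72, 1.72 and 1.66 in the brains named ES23 and ES27, 0.93 and 1.20 in those named ES19, and 0.95 to 1.13 in SAC brains. For the share of the 4 genes and for this ratio, the 4 brains named ES23 and ES27 were above all SAC brains. ES19-4 was below all SAC brains, and ES19-8 was above them all by less than the ES23 and ES27 brains. The 4 genes and the pair were picked from these same values, so this is a description. Within single RNAs the ratios stayed closer: mt-Atp8 to mt-Atp6 was 0.14 to 0.42 in PAE brains and 0.17 to 0.42 in SAC brains, and mt-Nd4l to mt-Nd4 was -1.06 to -0.87 in PAE brains and -0.96 to -0.86 in SAC brains. The ratio of mt-Nd6 to mt-Nd5 was -3.28 and -3.20 in ES23-4 and ES23-7, against -3.95 to -3.79 in the other PAE brains and -4.03 to -3.87 in SAC brains. Since prefix and any batch cannot be told apart, these are given with no test. Near-identical copies outside mitochondrial DNA (at least 95% identity over at least 50% of the transcript) were sought among annotated GENCODE M21 transcripts only. They were found for 8 of the 13 genes, mt-Atp6, mt-Co3, mt-Nd3 and mt-Nd4l among them. No such copy was found for mt-Atp8, but copies without an annotated transcript were not searched. The part of nuclear copies in these ratios was not tested.

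**Figure D4:**
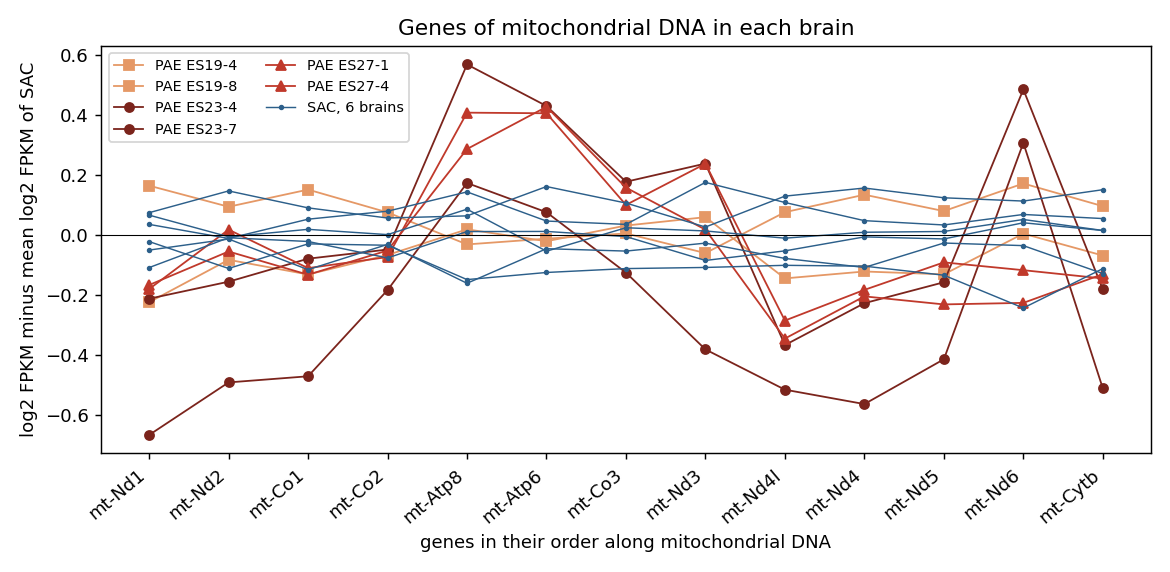
Log2 FPKM of each mitochondrial gene, in the order of the genome, minus the mean log2 FPKM of the 6 SAC brains, with PAE brains drawn by name prefix and SAC brains in blue. In the 4 brains named ES23 and ES27, mt-Atp8 and mt-Atp6 lie above the genes on either side of the block, while ES19 brains stay near the SAC lines.

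One PAE brain stood apart for much of the chain. ES23-7, a female, had the lowest value of all 12 brains for 49 of 87 nuclear members (56.3%), against 17.0% of all genes tested, and for 10 of 13 mitochondrial genes. It had the highest value for 5 nuclear members (5.75%), against 22.1% of all genes tested. Its median deviation from the mean of the 12 brains was -0.18 on the log2 scale over nuclear members and -0.38 over mitochondrial genes. ES19-4 was highest for 27 nuclear members (31.0%) and ES23-4 for 25 (28.7%), against 6.02% and 12.8% of all genes tested, and both are PAE brains. The SD of log2 values was larger in PAE than in SAC brains for 75 of 87 nuclear members (86.2%), against 69.6% of all genes tested, and for 13 of 13 mitochondrial genes. Without ES23-7 these counts were 57 of 87 nuclear members (65.5%), against 61.1% of all genes tested, and 12 of 13 mitochondrial genes. Its removal turned the median log2 fold change of nuclear members to 0.05, and Ndufa2 remained the single member called.
Members are shorter than most genes, and short genes outside the chain deviated in some of the same brains. The longest transcript of nuclear members had a median of 934 bases, against 3262 bases for other genes tested, and 64 of 87 (73.6%) were at most 1500 bases long, against 12.8%. In ES23-7, other genes with transcripts of up to 800 bases deviated by -0.12 (median of 294 genes) and those over 3000 bases by 0.04 (6758 genes). In ES23-4 the short genes deviated by 0.13, and in SAC26-8 by -0.08. Nuclear members of up to 800 bases deviated by -0.20 in ES23-7 and by 0.12 in ES23-4. In these brains short members had the sign of other short genes, but in ES19-8 they were at -0.03 against 0.04 for the other short genes, and in SAC26-7 at 0.05 against -0.01. Members over 1500 and up to 3000 bases deviated by -0.26 in ES23-7 and by 0.11 in ES19-4, against 0.004 and 0.01 for other genes of that length. Length therefore went with only some of the deviations, and its part was not tested beyond the loess correction.

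**Figure D5:**
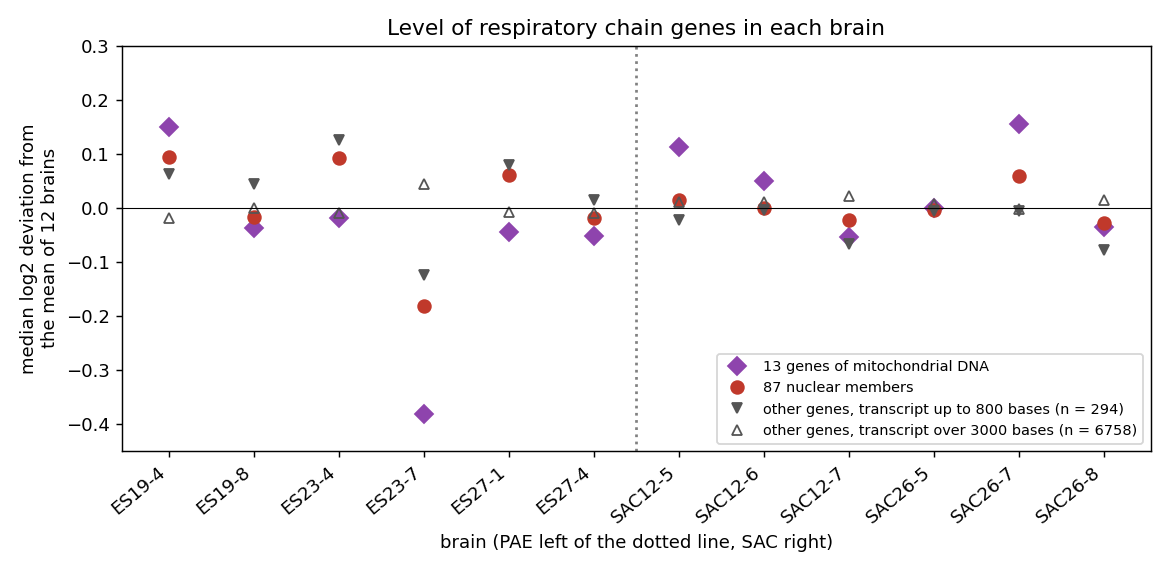
Median log2 deviation from the mean of the 12 brains, in each brain, for the 13 mitochondrial genes, the 87 nuclear members tested and other genes with short or long transcripts, PAE left and SAC right of the dotted line. ES23-7 lies lowest, at -0.18 for nuclear members and -0.38 for mitochondrial genes, and other short genes are also low there.

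The second question was whether the treatments differed within a sex. In males, Ndufa2 alone passed, in the higher direction, against 0.0324% of all genes tested. Male PAE brains had 51.4, 57.4 and 58.3 FPKM and male SAC brains 41.2, 42.2 and 43.1 FPKM, with a log2 fold change of 0.39 (SE 0.054, adjusted p = 0.049, n = 3 each). This call sat at the threshold and was lost under 8 other settings, without ES23-4, ES27-1 or ES27-4, and without any single SAC brain. In females no member passed, nor did any of the 12346 genes (0%) under limma, of which 826 were higher and 937 lower at an unadjusted p under 0.05. Female PAE brains had 51.4, 52.6 and 53.3 FPKM of Ndufa2 and female SAC brains 45.6, 47.7 and 48.5 FPKM, with a log2 fold change of 0.15 (SE 0.054, adjusted p = 0.312). Every PAE brain was above every SAC brain of its sex in both sexes.
Over the 100 members the median log2 fold change was 0.05 in males, with 66 positive, and -0.07 in females, with 30 positive. At an unadjusted p under 0.05, 10 members were higher and 0 lower in males, against 9.39% and 9.9% of all genes tested, and 1 was higher and 4 lower in females, against 6.69% and 7.59%. Over all genes tested the medians were 0.02 and -0.003, and 53.7% and 49.2% were positive. ES23-7, the brain low for the chain, is 1 of the 3 female PAE brains. In males, 16 members had all PAE above all SAC brains and 8 all below, against 16.6% and 16.3% of all genes tested. In females the counts were 2 and 2, against 7.41% and 7.33%.
The difference between the sexes was tested itself, and no member passed, against 0.0081% of all genes tested. At an unadjusted p under 0.05 it was positive for 9 members and negative for 0, against 2.54% and 1.41% of all genes tested. Ndufs6, an accessory subunit whose promoter is shown above, had 51.1, 51.3 and 55.6 FPKM in male PAE brains and 44.1, 47.7 and 48.6 FPKM in male SAC brains. In females it had 44.6, 48.3 and 49.0 FPKM in PAE brains and 50.8, 51.0 and 51.7 FPKM in SAC brains. All male PAE brains lay above and all female PAE brains below the SAC brains of their sex, but the interaction, 0.28 on the log2 scale (SE 0.080), had an adjusted p of 1.000.

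Genes that build, feed or regulate the chain were counted from lists outside the naming rule, to be read against the 4.34% of all genes tested that were higher and the 5.22% that were lower. All calls among the listed genes were lost with name prefixes as means and with the Hox level as a covariate, where 0 of 12346 genes passed. Of 37 tested assembly factors, 4 rose in PAE brains and none fell (median log2 fold change 0.007). Uqcc1, needed for cytochrome b of complex III, had 4.08 to 4.64 FPKM in PAE brains (median 4.51) and 2.91 to 4.03 FPKM in SAC brains (median 3.42), with no overlap and a log2 fold change of 0.28 (adjusted p = 0.022). Bcs1l, which inserts the iron-sulphur protein of complex III, had a log2 fold change of 0.23 (adjusted p = 0.041). Cox20 and Cox14, which serve the making of mt-Co2 and mt-Co1 proteins, were at 0.28 (adjusted p = 0.048 for Cox20) and 0.17 (adjusted p = 0.049 for Cox14) on the log2 scale. For these last 3 genes the groups overlapped, and their calls held under 10 of 25 alternatives for Bcs1l and 3 of 25 each for Cox20 and Cox14, against 20 of 25 for Uqcc1.
Among 12 genes of mitochondrial DNA replication and transcription, 2 rose and none fell (median 0.07). Tefm, the elongation factor of mitochondrial transcription, had 5.38 to 6.59 FPKM in PAE brains (median 5.74) and 4.20 to 5.19 FPKM in SAC brains (median 4.70), with no overlap and a log2 fold change of 0.25 (adjusted p = 0.028). Ssbp1, which coats single-stranded mitochondrial DNA, had 3.82 to 5.18 FPKM in PAE brains (median 4.58) and 3.43 to 3.97 FPKM in SAC brains (median 3.60), with a log2 fold change of 0.25 (adjusted p = 0.032). Twnk, the helicase, was at 0.25 (adjusted p = 0.056) and Top1mt, a topoisomerase, at -0.15 (adjusted p = 0.065), neither past the threshold. The call held under 19 of 25 alternatives for Tefm and 14 of 25 for Ssbp1.
None of 15 genes of mitochondrial RNA processing and stability passed (median 0.07). The smallest p-values were those of Elac2, which cuts the 3′ ends of tRNAs (0.16, adjusted p = 0.173), Trmt10c, a subunit of the enzyme that cuts their 5′ ends (0.12, adjusted p = 0.215), Fastk (-0.18, adjusted p = 0.257) and Rpusd4 (0.10, adjusted p = 0.342).
Of 9 regulators, 1 fell and none rose (median 0.03). Ppargc1a, the coactivator known for driving mitochondrial biogenesis, had 4.69 to 6.44 FPKM in PAE brains (median 5.13) and 6.61 to 8.42 FPKM in SAC brains (median 7.36). All PAE brains were below all SAC brains, which was so for 1.92% of all genes tested, with a log2 fold change of -0.43 (SE 0.073, adjusted p = 0.018), and it passed under 23 of 25 alternatives. With name prefixes as means the adjusted p was 0.212, and with the Hox level as a covariate 0.257. Gabpb1 (0.16, adjusted p = 0.138), Gabpa (0.09, adjusted p = 0.334) and Esrra (0.14, adjusted p = 0.386) did not pass.
In the tricarboxylic acid cycle and its entry, 1 of 17 genes rose and 2 fell (median -0.08), and 9 had negative values at an unadjusted p under 0.05, against 14.8% of all genes tested. Pdha1, of the pyruvate dehydrogenase complex, had 41.9 to 48.1 FPKM in PAE brains (median 42.8) and 48.2 to 51.1 FPKM in SAC brains (median 49.4), with no overlap and a log2 fold change of -0.18 (adjusted p = 0.021). Ogdh, of the oxoglutarate dehydrogenase complex, had 17.4 to 22.4 FPKM in PAE brains (median 19.8) and 21.7 to 25.5 FPKM in SAC brains (median 23.5), with a log2 fold change of -0.24 (adjusted p = 0.027). Idh2, the mitochondrial NADP-dependent isocitrate dehydrogenase, had 32.1 to 38.5 FPKM in PAE brains (median 33.4) and 26.9 to 32.0 FPKM in SAC brains (median 30.01), with no overlap and a log2 fold change of 0.20 (adjusted p = 0.032). With transcripts summed, its log2 fold change was -0.75 and did not pass, so its direction depends on the gene values. The call held under 15 of 25 alternatives for Idh2, 18 of 25 for Ogdh and 21 of 25 for Pdha1. Fh1, fumarase, was at -0.19 (adjusted p = 0.057).
None of 9 carriers and cytochrome c genes passed (median -0.09). Vdac2 (-0.09, adjusted p = 0.155) and Vdac1 (-0.09, adjusted p = 0.232) encode pores of the outer membrane, Atpif1 (0.09, adjusted p = 0.242) an inhibitor of the ATP synthase and Slc25a4 (-0.09, adjusted p = 0.273) an ADP and ATP carrier.

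Marker genes of cell types were summed in each brain, and the sums were not tested. For every list the PAE and SAC ranges overlapped, for astrocyte genes through ES19-4 alone. Summed FPKM of 6 astrocyte genes was 120 to 208 in PAE brains and 192 to 236 in SAC brains, and of 6 genes of cycling cells 75.8 to 102 in PAE brains and 61.9 to 78.8 in SAC brains. Cerebellar genes (6) had 40.2 to 62.5 in PAE brains and 55.3 to 87.2 in SAC brains, and pituitary and salivary gland genes, 4 of 8 in the table, had 0.89 to 10.9 in PAE brains and 1.07 to 85.9 in SAC brains. Neuron genes (6) had 895 to 976 in PAE brains and 902 to 954 in SAC brains, progenitor genes (6) 346 to 403 in PAE brains and 339 to 395 in SAC brains, and erythroid genes (9) 1626 to 3444 in PAE brains and 1773 to 3043 in SAC brains. Of 9 muscle genes, 3 were in the table, with 2.16 to 2.80 FPKM in PAE brains and 2.66 to 4.04 FPKM in SAC brains. No marker listed in the table was at 0 in all brains. Among single markers, Apoe, Aqp4 and Aldh1l1 of astrocytes and Pax2, Pcp2 and Car8 of cerebellum were called lower in PAE brains. Mcm2 of cycling cells and Nes of progenitors were called higher. Of all genes tested, 5.22% were lower and 4.34% higher. These calls held under 23 of 25 alternatives for Pcp2 and Car8, 20 of 25 for Aqp4 and 7 to 15 of 25 for the others. All were lost with name prefixes as means and with the Hox level as a covariate. The part of these cell types in the results for the respiratory chain was not tested.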

How the data were processed

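Poly-A RNA was made into libraries with a Kapa stranded kit and read from both ends on an Illumina HiSeq by a service company. The authors' pipeline was FastQC, cutadapt, HISAT2, StringTie and Ballgown, without stated versions. They name the build GRCm28, and start and end of 89 of 102 members equal those in GENCODE M21 (GRCm38). Gene and transcript tables were deposited in FPKM, and a gene's FPKM is not the sum over its transcripts. Depth is unknown.

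A value entered every test as log2(FPKM + 1), after genes averaging under 1 FPKM over the 12 brains were dropped. Limma 3.58.1 (R 4.3.3, trended empirical Bayes, Benjamini-Hochberg over 12346 genes) compared PAE with SAC in a fit of 2 groups, and each sex and the interaction in a fit of 4 groups. Python 3.11 with pandas 2.3.3 gave sums, shares and counts. The fit was tested on simulated data in which every brain varied independently. That simulation cannot show what likeness among brains of the same name prefix would do to the calls.

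The naming rule used no measured value, but the rule and the lists were chosen with earlier results of these data known. Named were all mitochondrial genes, members called, and the highest member and the most positive and negative log2 fold change in each class. Isoform families, the Sdh genes, members below the filter, up to 4 genes of smallest p per list, and markers called were named too. Alternatives were a pseudocount of 0.1, other filters, scalings, a test without moderation, sums of transcripts, sex as a covariate, the name prefix as a block or mean, and leaving out each brain. A loess correction on transcript length (span 0.5) and the Hox level as a covariate were added after seeing the data. Genes overlapping another gene of the table (31 members, and 50 overlap any gene of GENCODE M21) are uncertain. So are those with near-identical copies among annotated transcripts (15 members, of which 7 nuclear), and copies without an annotated transcript were not searched.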

Additional observations from a re-analysis of the deposited data

Results flagged for a closer look

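In 226 groups of 6 values, 18 held a brain whose gap to its nearest neighbour was large against the range of its group (Dixon's criterion), and chance alone gives about 1 in 20. Of these, 11 were ES23-7, the PAE brain in which the chain was low, and in 10 of them it was the low value. For accessory subunits of complex I, ES23-7 had 14.6 FPKM of Ndufa11 against 19.0 to 20.6 in the other PAE brains, 32.5 of Ndufa3 against 42.2 to 47.1, and 49.4 of Ndufa5 against 61.7 to 68.2. It had 39.5 FPKM of Ndufb4 against 56.3 to 66.1, 104 of Ndufb9 against 147 to 158, 63.5 of Ndufs4 against 76.1 to 83.5, and 18.5 of the assembly factor Ndufaf2 against 22.0 to 23.6. In complexes III and V it had 69.3 FPKM of Uqcr11 against 96.5 to 112, 30.5 of Atp5d against 33.5 to 35.02, and 44.7 of Atp5f1 against 59.9 to 66.8. For Sdhb of complex II it was instead high, at 32.1 FPKM against 29.9 to 30.4.

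Other brains gave the remaining 7. ES19-4 had 95.1 FPKM of Ndufa8 against 78.9 to 84.6 in the other PAE brains and 98.5 of Cox4i1 against 83.7 to 88.6, and ES27-4 had 8.23 of Ndufaf1 against 5.88 to 6.69. Among SAC brains, SAC26-7 had 34.3 FPKM of Ndufv3 against 30.4 to 30.9 and 120 of Cox6b1 against 103 to 109. SAC12-5 had 29.6 FPKM of Ndufs3 against 25.7 to 26.9, and SAC26-8 had 88.1 of Atp5c1 against 93.2 to 95.9.

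Ndufs6 was picked from the 102 members because all male PAE brains lay above and all female PAE brains below the SAC brains of their sex. Of all genes tested, 16.6% had all male PAE brains above and 7.33% all female PAE brains below. The share with both was not counted. The interaction was 0.28 on the log2 scale (limma, unadjusted p = 0.0049), which did not pass adjustment over all genes. This p comes from the same values that picked the gene, so it adds no support, and a difference between the sexes was not shown.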

How the results depend on the processing

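Ndufa2 was higher in PAE brains under 23 of 25 alternatives, with log2 fold changes between 0.24 and 0.29, and 0 members were higher with name prefixes as means or with the Hox level as a covariate, settings in which 0 of 12346 genes passed (0%), so that these counts say nothing particular about the members. A test per gene without moderation called 2 members higher, adding Cox7a2l. Leaving out single brains gave 1 to 2 members higher (2 without ES19-4, adding Atp5e) and 0 to 6 members lower. The 6 without ES19-4 were mt-Nd1, mt-Nd4, mt-Nd4l, mt-Nd5, Sdha and Atp5s, and without SAC26-5 it was 1, Ndufa4l2. Without ES19-4, the PAE brain with Hox expression, 19.3% of all genes passed, against 9.56% with it and 1% without SAC26-8. Of members lower, where 0 passed in the reported fit, quantile normalization gave 2 (mt-Nd1 and mt-Nd4l), scaling to FPKM outside mitochondrial DNA 1 and the loess correction on transcript length 1, both mt-Nd4l. The causes were not tested. Scalings left the median of all genes near 0.

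In males the single call, Ndufa2, was lost (0 members higher) with a pseudocount of 0.1, a filter at 0.1 or none, quantile normalization, scaling outside mitochondrial DNA, a test per gene, sums of transcripts and the loess correction, and leaving out single brains gave 0 to 1. In females, leaving out single brains gave 0 to 5 members lower (5 without ES19-4, where 2.45% of all genes were lower). The interaction gave 0 members under every alternative run. No direction was reversed among members called.

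No paired analysis was possible because each name prefix holds pups of 1 treatment and the labels give the groups no shared replicate numbers. Depth is unknown, and the number of brains limits the precision: 84 of 100 intervals lay within 0.32 on the log2 scale.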
